A study of Macaca mulatta with 21 samples.

Results

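The BCL2 family genes that decide whether a cell opens its mitochondria and dies were read across pluripotent and somatic cells of the rhesus macaque. Genes were taken by symbol: BCL2, BCL2L1, MCL1, BAX, BAK1, PMAIP1, BIK, BBC3, BCL2L11 and BID, 10 in all. Of these, 9 had at least 1 probe set annotated with their own symbol, 21 probe sets in total, among 14133 genes with a symbol of their own on the array. BID had none under its symbol and was not analysed here. All 9 passed the filter on dim genes (a log2 intensity of 5 or more on at least 3 arrays), which 11143 genes passed.

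Affymetrix rhesus expression arrays were run on 7 lines with 3 arrays (A, B and C) each, 21 arrays in all. Somatic cell nuclear transfer gave the cloned embryos behind 2 embryonic stem cell lines, the male CRES-1 and the female CRES-3. Retroviral OCT4, SOX2, KLF4 and cMYC turned skin fibroblasts into the induced pluripotent lines RiPS1 (a male fetus), RiPS2 (a female of 10 years) and RiPS3 (a female of 8 years). ORMES23, which is male, came from an IVF embryo, and the fibroblasts were grown from the skin of an adult female of 8 years. All 7 lines, the fibroblasts included, grew on mitotically inactivated mouse embryonic fibroblast feeders. RNA came from hand-picked undifferentiated colonies, or from fibroblasts released with trypsin. Each line is 1 derivation and the fibroblasts come from 1 animal, so that a comparison speaks for these lines only. The labels call the 3 arrays of a line biological replicates without saying what was grown separately, so p-values measure the spread between these arrays.

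In the intrinsic pathway of apoptosis, the anti-apoptotic proteins BCL2, BCL-XL (from BCL2L1) and MCL1 hold the pore formers BAX and BAK in check on the outer mitochondrial membrane. Stress raises or activates BH3-only proteins, among them NOXA (PMAIP1), BIK, PUMA (BBC3), BIM (BCL2L11) and BID, which bind the guardians or activate the pore formers directly. Cytochrome c then leaves the mitochondria and caspases are activated. Pluripotent stem cells are known to die readily after DNA damage.

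Array medians lay between log2 4.98 and 5.14, no pair of arrays held identical values, and the highest correlation between 2 arrays was 0.996. Over the 7 of 8 pluripotency markers with a measured probe set, the mean level per array was 10.96 to 11.3 in the pluripotent lines and 3.85 to 4.21 in the fibroblasts. Over 8 of 9 fibroblast markers it was 6.93 to 7.83 in the pluripotent lines and 10.4 to 10.6 in the fibroblasts. Among the fibroblast markers, DCN did not separate them, at 6.44 in the fibroblasts and 6.30 to 6.82 in the pluripotent lines. THY1 stood at 10.6 against 8.64 to 10.2. The labels of the pluripotent and fibroblast arrays therefore matched the means of their marker sets, though not every marker. The arrays were bulk preparations, in which fewer cells of a type and less RNA per cell cannot be told apart.

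Against the fibroblasts, and on the brightest probe set of each gene, the pluripotent lines differed most in 3 BH3-only genes. PMAIP1 stood 26.8 to 41.8 times higher and BIK 2.22 to 3.82 times higher in the 6 lines. BCL2L11 was lower in all 6, at 0.358 to 0.449 of the fibroblast level on that probe set. Averaged over its probe sets, BCL2L11 reached a 2-fold difference in no line (log2 differences -0.58 to -0.27). MCL1 was higher by close to 2-fold on its brightest probe set, BCL2L1 by less than that on its own, and BAK1 was lower. BBC3 passed the test in 4 of the 6 lines, at up to 2.01-fold in RiPS1, and BCL2 and BAX passed in no line. Below, rose, fell and called mean that a gene had both a limma adjusted p under 0.05 and a change of 2-fold or more. By that rule 3 of the 9 genes were called in CRES-1, where 30.6% of all tested genes were called, and 3 in CRES-3, where 33.3% were. The count was also 3 in RiPS2 (31.8% of all genes), 3 in RiPS3 (32.5%) and 3 in ORMES23 (32.6%), and it was 5 in RiPS1 (32.8%). A count of 3 of 9 lies near these shares over all genes. The 6 comparisons share the 3 fibroblast arrays and are not independent of each other.

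**Figure D1:**
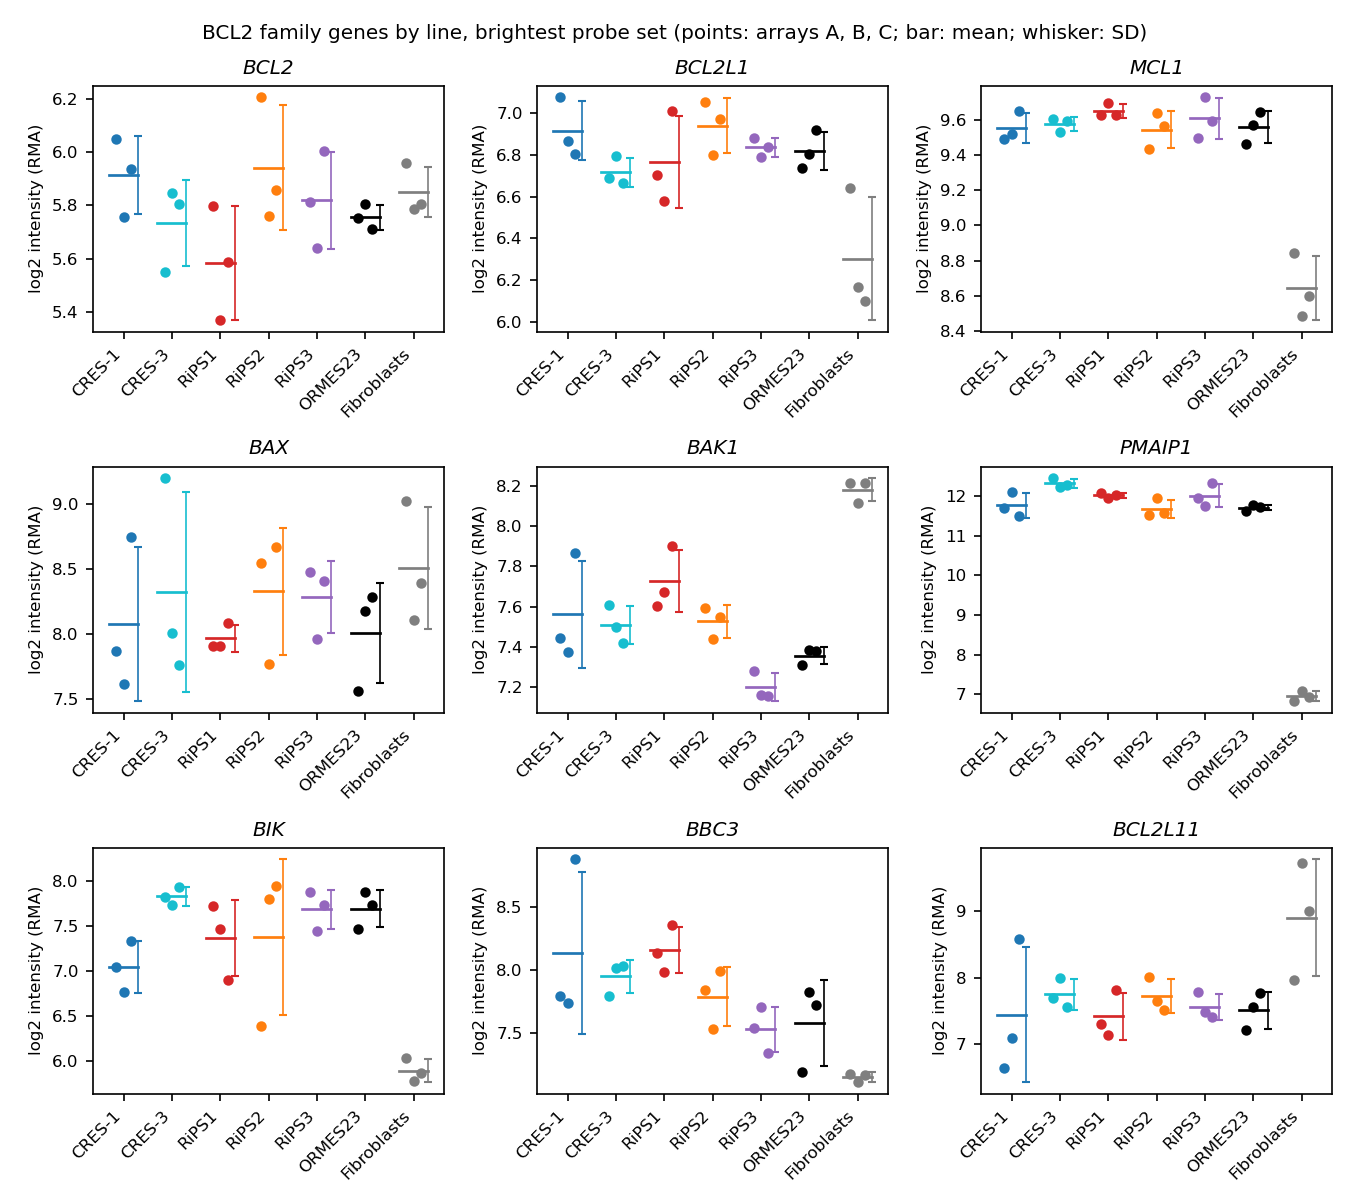
Log2 RMA intensity of the brightest probe set of each of the 9 genes (vertical axes) in the 6 pluripotent lines and the fibroblasts (horizontal axes); points are arrays A, B and C, bars are means and whiskers are SDs. PMAIP1 lies between 11.5 and 12.5 on the pluripotent arrays and between 6.82 and 7.07 on the fibroblast arrays; the axes start above 0 and differ between genes.

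With no limit on the fold change, an adjusted p under 0.05 was reached by 7 of the 9 genes in CRES-1 (59.4% of all tested genes), 7 in CRES-3 (64.7%), 7 in RiPS1 (65.2%) and 7 in RiPS2 (61.1%). It was reached by 6 in RiPS3 (63% of all tested genes) and 6 in ORMES23 (63.5%). A gene that met this rule alone is said below to have passed. The median log2 difference of the 9 genes ran from 0.38 in RiPS3 to 0.64 in RiPS2, where the median over all tested genes ran from 0.02 in ORMES23 to 0.05 in RiPS2. The 18 pluripotent arrays did not overlap with the 3 fibroblast arrays for 5 of the 9 genes (MCL1, BAK1, BBC3, PMAIP1 and BIK), as they did not for 43.6% of all tested genes.

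**Figure D2:**
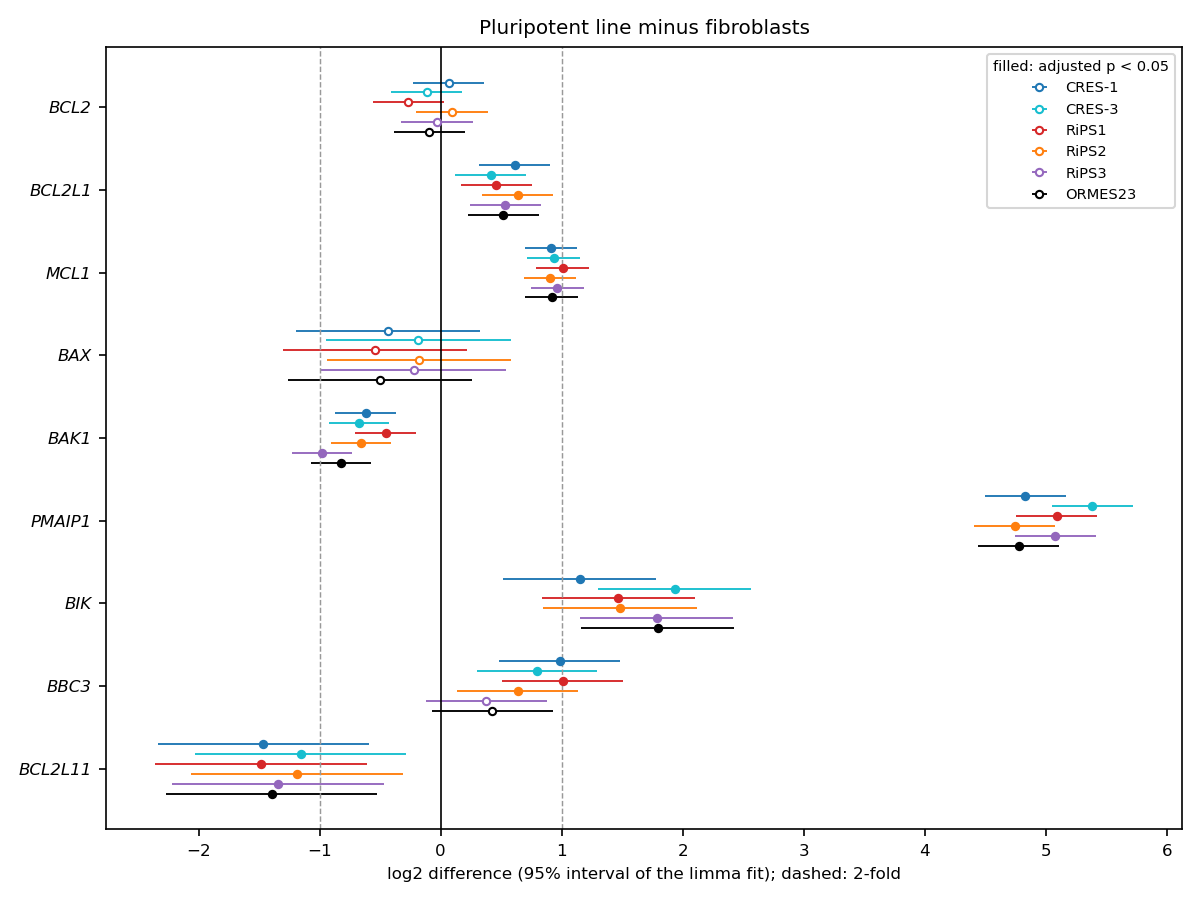
Log2 difference of each pluripotent line minus the fibroblasts for the 9 genes, with the 95% interval of the limma fit; filled points passed at an adjusted p under 0.05 and dashed lines mark 2-fold. PMAIP1 lies between 4.74 and 5.39, far to the right of the other genes, and BCL2L11 and BAK1 are the genes that passed below 0.

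Among the guardians, MCL1, a short-lived protein that sequesters BAK and BH3-only proteins, was measured by 2 probe sets that disagreed. The brighter one (its name ends in x_at) read 9.49, 9.52 and 9.65 in CRES-1, 9.60, 9.53 and 9.59 in CRES-3, 9.63, 9.70 and 9.63 in RiPS1, 9.43, 9.64 and 9.56 in RiPS2, 9.50, 9.73 and 9.59 in RiPS3, and 9.46, 9.57 and 9.64 in ORMES23. On the fibroblast arrays it read 8.84, 8.48 and 8.60. Every pluripotent array lay above every fibroblast array, and the pluripotent line means differed among themselves by at most 0.11. The log2 difference ran from 0.90 in RiPS2 to 1.01 in RiPS1 (SE 0.10 each; limma adjusted p = 1.34e-07 to 5.57e-07), which reached 2-fold in RiPS1 alone. That call was lost without RiPS1 B (0.98), Fibroblasts B (0.93) or Fibroblasts C (0.99). Without Fibroblasts A the gene was called in all 6 lines, with differences of 1.00 to 1.11, and without RiPS3 A it was called in RiPS3 (1.02).

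The second MCL1 probe set (MmugDNA.38922.1.S1_at) went the other way. It averaged 6.44 ± 0.12 in CRES-1, 5.93 ± 0.09 in CRES-3, 5.83 ± 0.11 in RiPS1, 6.22 ± 0.22 in RiPS2, 6.17 ± 0.09 in RiPS3, 6.05 ± 0.20 in ORMES23 and 6.60 ± 0.13 in the fibroblasts (SD, n = 3 each). It was lower in 5 lines, by log2 differences of -0.38 in RiPS2 to -0.77 in RiPS1, and did not pass in CRES-1 (-0.16; limma adjusted p = 0.317 over 18361 probe sets). Averaged over both probe sets, MCL1 passed in 3 of the 6 lines, with log2 differences of 0.12 to 0.38. In Affymetrix naming, that ending of the brighter probe set marks a probe set with probes that may also bind other transcripts. Which of the probe sets follows the MCL1 transcript was not tested.

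BCL2L1, whose main product BCL-XL blocks BAX and BAK, had 4 probe sets. The brightest (MmugDNA.11538.1.S1_at) averaged 6.92 ± 0.14 in CRES-1, 6.72 ± 0.07 in CRES-3, 6.76 ± 0.22 in RiPS1, 6.94 ± 0.13 in RiPS2, 6.84 ± 0.05 in RiPS3, 6.82 ± 0.09 in ORMES23 and 6.30 ± 0.30 in the fibroblasts (SD, n = 3 each). It passed in all 6 lines at log2 differences of 0.41 to 0.64 (limma adjusted p = 0.000642 to 0.0148), below 2-fold in each. The arrays overlapped with the fibroblasts in RiPS1 only, where array B (6.58) lay below Fibroblasts A (6.64). Leaving out Fibroblasts B or Fibroblasts C left 5 lines passing, with differences that started at 0.35 and 0.31. A second quantile normalization left 4 lines passing (adjusted p up to 0.0995), as did a fit of the arrays of the 2 lines only (up to 0.0841). The next brightest probe set (MmugDNA.12133.1.S1_s_at) was lower in CRES-3 (-0.49) and ORMES23 (-0.45) and passed in no other line. MmugDNA.12133.1.S1_at was higher in CRES-1 alone (0.42), and MmugDNA.27039.1.S1_at passed nowhere. Averaged over the 4 probe sets, BCL2L1 passed in 1 line, and the differences ran from -0.05 to 0.37, so that the direction of BCL2L1 depends on the probe set.

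BCL2, the founding member, was dim and flat. Its single probe set (MmugDNA.18029.1.S1_at) averaged 5.91 ± 0.15 in CRES-1, 5.73 ± 0.16 in CRES-3, 5.58 ± 0.21 in RiPS1, 5.94 ± 0.24 in RiPS2, 5.82 ± 0.18 in RiPS3, 5.76 ± 0.05 in ORMES23 and 5.85 ± 0.09 in the fibroblasts (SD, n = 3 each). All 6 lines overlapped with the fibroblasts. The differences from them ran from -0.27 in RiPS1 (95% interval -0.56 to 0.03) to 0.09 in RiPS2 (95% interval -0.20 to 0.39), and BCL2 passed in no line.

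BAK1, which encodes the pore former that sits in the mitochondrial membrane, read 7.44, 7.37 and 7.87 in CRES-1, 7.61, 7.50 and 7.42 in CRES-3, 7.60, 7.67 and 7.90 in RiPS1, 7.59, 7.44 and 7.55 in RiPS2, 7.28, 7.16 and 7.16 in RiPS3, 7.31, 7.38 and 7.38 in ORMES23 and 8.22, 8.11 and 8.21 in the fibroblasts. Every pluripotent array lay below every fibroblast array. The log2 difference was smallest in RiPS1 (-0.46, SE 0.12) and largest in RiPS3 (-0.98, SE 0.12), with limma adjusted p = 1.08e-06 to 0.00265. BAK1 thus passed as lower in all 6 lines and was called in none, with RiPS3 just short of 2-fold. Without RiPS3 A or Fibroblasts B it was called there (-1.02 each).

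BAX, the pore former that moves from the cytosol to mitochondria, varied more between arrays of a line than between lines. Its brightest probe set (MmugDNA.6935.1.S1_s_at) read 7.87, 7.61 and 8.74 in CRES-1, 9.20, 8.01 and 7.76 in CRES-3, 7.91, 7.90 and 8.08 in RiPS1, 8.55, 7.76 and 8.67 in RiPS2, 8.48, 7.96 and 8.41 in RiPS3, 7.56, 8.17 and 8.28 in ORMES23 and 9.02, 8.11 and 8.39 in the fibroblasts. The highest array of the series was CRES-3 A, the lowest ORMES23 A, and all lines but RiPS1 overlapped with the fibroblasts. The differences from the fibroblasts ran from -0.54 in RiPS1 (95% interval -1.31 to 0.22) to -0.18 in RiPS2 (95% interval -0.94 to 0.58), and none passed. The other BAX probe sets kept the same arrays at the extremes: CRES-3 A, CRES-1 C and Fibroblasts A were the highest of their lines in all 3 probe sets, and ORMES23 A and RiPS2 B the lowest. MmugDNA.5655.1.S1_at passed as lower in 2 lines, with differences of -0.50 to -0.23 over the 6 lines, and MmugDNA.6935.1.S1_at in none.

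**Figure D3:**
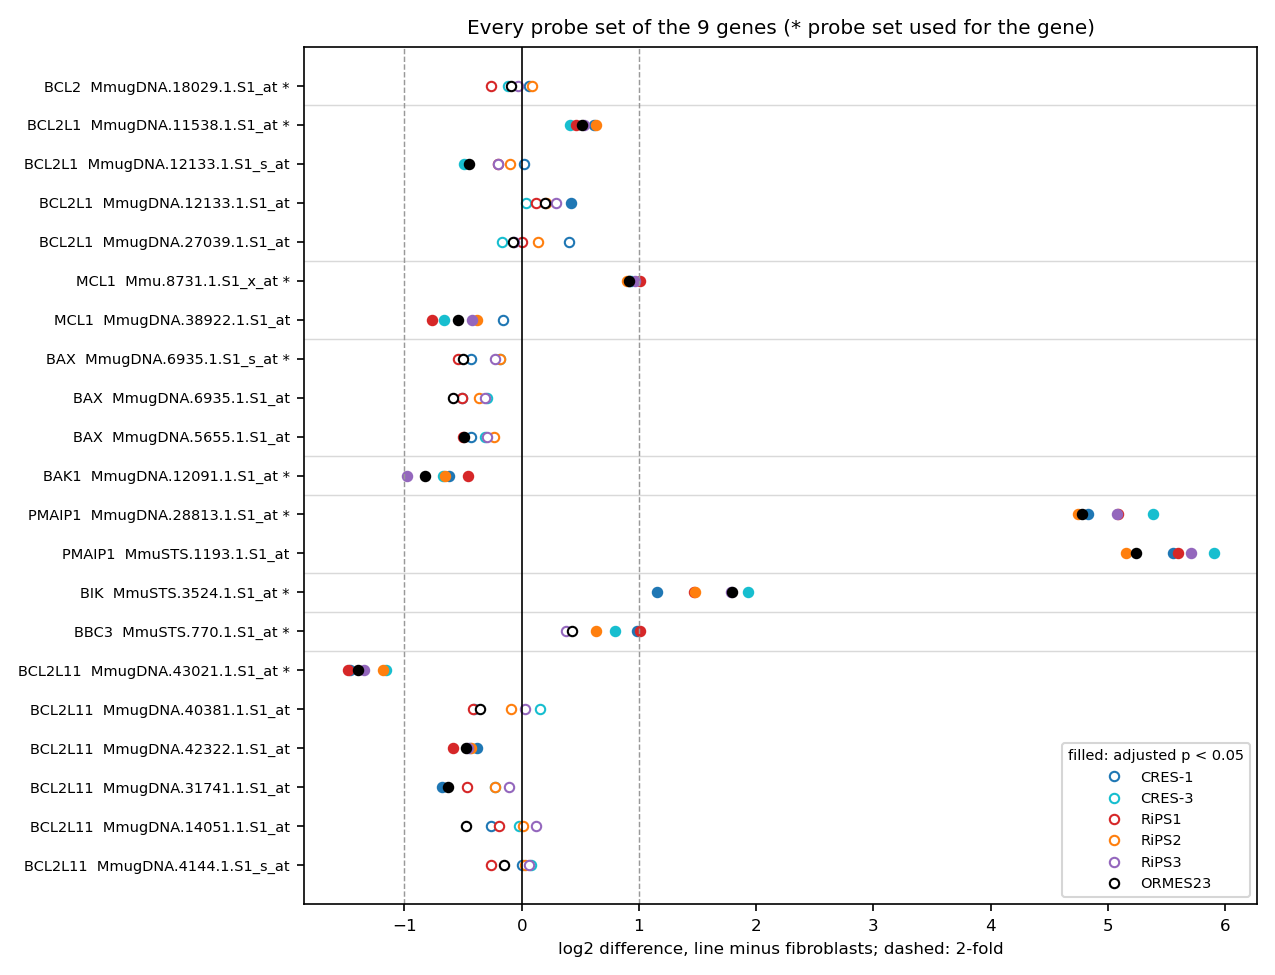
Log2 difference of each pluripotent line minus the fibroblasts for every probe set of the 9 genes, with the probe set used for the gene starred; filled points passed at an adjusted p under 0.05 over 18361 probe sets and dashed lines mark 2-fold. Both PMAIP1 probe sets lie above 4.7, while the MCL1 probe sets lie on opposite sides of 0.

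Of the BH3-only genes, PMAIP1 changed most. It encodes NOXA, a p53 target that binds MCL1 and marks it for degradation. On the probe set MmugDNA.28813.1.S1_at it read 11.7, 12.1 and 11.5 in CRES-1, 12.5, 12.2 and 12.3 in CRES-3, 12.1, 12.0 and 12.0 in RiPS1, 11.5, 11.9 and 11.6 in RiPS2, 12.0, 11.8 and 12.3 in RiPS3 and 11.6, 11.8 and 11.7 in ORMES23. On the fibroblast arrays it read 6.82, 7.07 and 6.93. No pluripotent array came within 4 log2 units of a fibroblast array. The log2 difference ran from 4.74 in RiPS2 to 5.39 in CRES-3 (SE 0.16 each; limma adjusted p = 1.58e-14 to 6.57e-14).

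Among 11143 tested genes, PMAIP1 ranked between 53 (CRES-3) and 80 (ORMES23) from the top by signed difference from the fibroblasts. Its second probe set (MmuSTS.1193.1.S1_at) read 6.04, 6.29 and 6.19 in the fibroblasts and rose in all 6 lines by 5.16 in RiPS2 to 5.90 in CRES-3 (SE 0.16 each; limma adjusted p = 2.4e-15 to 1.71e-14 over probe sets). PMAIP1 was called in all 6 lines under every alternative tried, with differences of 4.61 to 5.64. A rise in all 6 lines was called for 12.7% of all tested genes.

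BIK, a BH3-only protein of the endoplasmic reticulum that binds BCL2 and BCL-XL, rose in all 6 lines. Its probe set (MmuSTS.3524.1.S1_at) read 7.04, 6.76 and 7.33 in CRES-1, 7.81, 7.73 and 7.93 in CRES-3, 7.72, 7.47 and 6.90 in RiPS1, 6.38, 7.80 and 7.94 in RiPS2, 7.87, 7.44 and 7.72 in RiPS3, 7.47, 7.87 and 7.73 in ORMES23 and 6.03, 5.78 and 5.86 in the fibroblasts. RiPS2 A was the lowest pluripotent array and still lay above the fibroblasts. The log2 difference was smallest in CRES-1 (1.15) and largest in CRES-3 (1.93), with an SE of 0.30 and a limma adjusted p of 0.00301 in CRES-1 and 2.06e-05 in CRES-3. All 6 calls held under every alternative tried, with differences of 1.01 to 2.00.

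BBC3 encodes PUMA, another p53 target, which binds all the guardians. It read 7.80, 7.73 and 8.88 in CRES-1, 7.80, 8.02 and 8.03 in CRES-3, 8.14, 7.99 and 8.35 in RiPS1, 7.84, 7.53 and 7.99 in RiPS2, 7.54, 7.71 and 7.34 in RiPS3, 7.19, 7.83 and 7.72 in ORMES23 and 7.18, 7.11 and 7.17 in the fibroblasts. No pluripotent array overlapped with the fibroblasts, though ORMES23 A (7.19) lay just above Fibroblasts A (7.18), and CRES-1 C was the highest array. BBC3 passed in 4 lines, with log2 differences of 0.98 in CRES-1, 0.80 in CRES-3, 1.01 in RiPS1 and 0.64 in RiPS2 (SE 0.24 each; limma adjusted p = 0.00119 to 0.0274). It did not pass in RiPS3 (0.38, adjusted p = 0.175) or ORMES23 (0.43, adjusted p = 0.124). RiPS2 no longer passed without Fibroblasts B, without Fibroblasts C or with median centring of each array, which left 3 lines, and with array weights all 6 lines passed (adjusted p up to 0.0365). The call at 2-fold or more in RiPS1 was lost without RiPS1 C (0.91) or Fibroblasts B (0.99), and CRES-1 was called without CRES-1 A (1.15) or CRES-1 B (1.19).

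BCL2L11, whose product BIM binds every guardian and can activate BAX and BAK, fell in all 6 lines, a pattern called for 10.5% of all tested genes. Its brightest probe set (MmugDNA.43021.1.S1_at) read 6.64, 7.09 and 8.58 in CRES-1, 7.69, 8.00 and 7.55 in CRES-3, 7.30, 7.14 and 7.82 in RiPS1, 8.00, 7.64 and 7.51 in RiPS2, 7.79, 7.48 and 7.41 in RiPS3, 7.21, 7.55 and 7.76 in ORMES23 and 7.97, 9.73 and 9.01 in the fibroblasts. Fibroblasts A lay below CRES-1 C and just below CRES-3 B and RiPS2 A, so these 3 lines overlapped with the fibroblasts and the other 3 did not. The log2 difference ran from -1.16 in CRES-3 to -1.48 in RiPS1 (SE 0.41 each; limma adjusted p = 0.00458 to 0.0212).

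These calls rested on few arrays. Without Fibroblasts B the BCL2L11 differences shrank to between -0.74 and -1.07 and 2 lines passed, CRES-1 and RiPS1. Without Fibroblasts C, 4 lines passed, and CRES-3 (-1.10) and RiPS2 (-1.13) did not. With the arrays of the 2 lines only, 5 lines passed. The CRES-3 call was also lost without CRES-3 A (-1.13) or CRES-3 C (-1.06), and the RiPS2 call without RiPS2 C (-1.08). Without Fibroblasts A the differences ran from -1.62 to -1.95 and all 6 lines were called.

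The 7 markers of dividing cells, all measured, differed between the same fibroblast arrays: their mean was 10.8 to 11.4 on the pluripotent arrays, and 10.2 on Fibroblasts A, 7.85 on Fibroblasts B and 9.10 on Fibroblasts C. The 2 of 5 measured markers of stress and dissociation averaged 6.99 to 9.74 on the pluripotent arrays, and 6.33, 8.31 and 7.91 on Fibroblasts A, B and C. Their part in the BCL2L11 difference was not tested.

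The other 5 probe sets of BCL2L11 gave smaller differences. MmugDNA.42322.1.S1_at read 6.85, 6.76 and 6.78 in the fibroblasts, with far less spread than the brightest probe set, and was lower in all 6 lines by -0.38 in CRES-1 to -0.59 in RiPS1 (limma adjusted p = 0.00147 to 0.0273 over probe sets). MmugDNA.31741.1.S1_at was lower in 2 lines, with differences of -0.11 to -0.68, and MmugDNA.40381.1.S1_at passed in none (-0.41 to 0.15). MmugDNA.14051.1.S1_at and MmugDNA.4144.1.S1_s_at were too dim to be tested. Averaged over its probe sets, BCL2L11 passed in 2 lines, at -0.57 in RiPS1 and -0.58 in ORMES23.

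On the brightest probe set of each gene, array CRES-1 C was the highest of its line for BCL2L11 (8.58), BBC3 (8.88), BAX (8.74), BAK1, BIK and MCL1. It was the lowest of its line for PMAIP1 (11.5) and BCL2L1 (6.81). This did not hold on the second probe sets of PMAIP1 and MCL1, nor on every probe set of BCL2L11 and BCL2L1. No count over all tested genes was made, so nothing particular to these genes is read from that array. On the same arrays the mean of the 5 markers of differentiating endoderm, all measured, was 7.82 on CRES-1 A, 7.67 on CRES-1 B and 6.19 on CRES-1 C, against a range of 6.06 to 9.22 over all pluripotent arrays and 5.94 to 6.31 over the fibroblasts. Their part in the spread of the members was not tested.

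Each reprogrammed line was compared with ORMES23, comparisons that share the 3 ORMES23 arrays, and no member was called in any of the 5. Of all tested genes, 0% were called in CRES-1, 0.996% in CRES-3, 2.4% in RiPS1, 0.458% in RiPS2 and 0.763% in RiPS3. No member passed at any fold either, where 0% of all tested genes passed in CRES-1, 2.51% in CRES-3, 8.34% in RiPS1, 0.942% in RiPS2 and 1.95% in RiPS3. An unadjusted p under 0.05 was reached by 2 members in CRES-1, 1 in CRES-3, 2 in RiPS1, 0 in RiPS2 and 0 in RiPS3. At that unadjusted level no count over all tested genes was made, so nothing particular to the members is read from it.

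The member nearest to passing was PMAIP1 in CRES-3, which stood log2 0.61 above ORMES23 (95% interval 0.27 to 0.95; limma adjusted p = 0.0512). Its arrays did not overlap with those of ORMES23, and on the second PMAIP1 probe set the same difference was 0.67 and passed (adjusted p = 0.033 over probe sets). BAK1 stood 0.37 higher in RiPS1 (95% interval 0.12 to 0.62; adjusted p = 0.0642). BBC3 stood 0.56 higher in CRES-1 (adjusted p = 0.387) and 0.58 higher in RiPS1 (adjusted p = 0.158), and BIK stood at -0.64 in CRES-1 (adjusted p = 0.43). On its brightest probe set MCL1 was the most uniform: its 5 differences from ORMES23 ran from -0.01 to 0.09, and the widest 95% bounds were -0.23 and 0.31. On the dimmer MCL1 probe set they ran from -0.22 in RiPS1 to 0.39 in CRES-1, and none passed (adjusted p = 0.253 to 0.76 over probe sets). The 95% intervals of BCL2L11 (up to 1.11), BAX (up to 1.08), BBC3 (up to 1.08) and BIK (down to -1.28) included a 2-fold difference in at least 1 line.

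**Figure D4:**
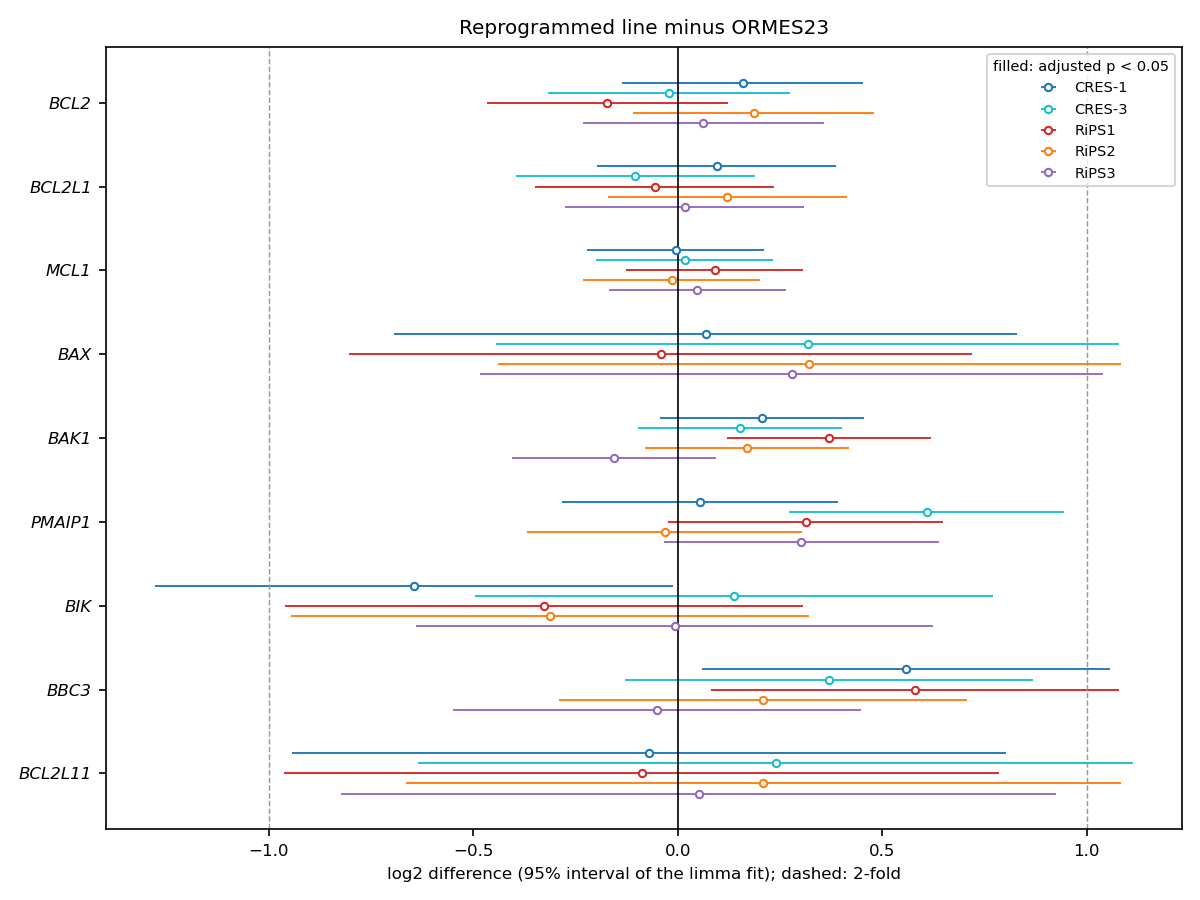
Log2 difference of each reprogrammed line minus ORMES23 for the 9 genes, with the 95% interval of the limma fit; dashed lines mark 2-fold and open points did not pass at an adjusted p under 0.05. No point is filled, and the intervals are narrowest for MCL1 and widest for BCL2L11 and BAX.

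The routes of reprogramming were compared within each labelled sex. In CRES-1 against RiPS1, both male, no member was called or passed (2.14% of all tested genes were called and 7.15% passed), and 1 member, BCL2, had an unadjusted p under 0.05 (log2 difference 0.33, limma adjusted p = 0.176). In CRES-3 against RiPS3, both female, no member was called or passed (0.0359% of all tested genes were called and 0.0718% passed), and 1 member, BAK1, had an unadjusted p under 0.05 (0.31, adjusted p = 0.484). PMAIP1 differed by -0.26 (95% interval -0.59 to 0.08) between the male lines and by 0.31 (95% interval -0.03 to 0.64) between the female lines. The difference between both contrasts was tested as an interaction, which called no member where 2.89% of all tested genes were called and 4.87% passed. BAK1 (-0.47, adjusted p = 0.117) and PMAIP1 (-0.57, adjusted p = 0.168) were the 2 members with an unadjusted p under 0.05 in it. These unadjusted counts have no share over all tested genes beside them either, and nothing particular to the members is read from them.

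Over all 6 pluripotent lines, limma's F-test passed for PMAIP1 (adjusted p = 0.0408) and BAK1 (adjusted p = 0.0433), 2 of the 9 members, as it did for 17.1% of all tested genes. That count fell to 0 when any array of ORMES23, CRES-3 or RiPS1 was left out, or CRES-1 A or RiPS2 C, and to 1 without RiPS2 A or any array of RiPS3. Over all tested genes the F-test passed for 1377 to 2222 in these fits, in place of 1909. The order of PMAIP1 was CRES-3 (12.3), RiPS1 (12.0), RiPS3 (12.0), CRES-1 (11.8), ORMES23 (11.7), RiPS2 (11.7) and the fibroblasts (6.94). No neighbouring pluripotent lines differed in it, whereas CRES-3 differed from CRES-1 by 0.55 (limma adjusted p = 0.0403) and from RiPS2 by 0.64 (adjusted p = 0.0287). The difference from CRES-1 passed under 9 of 17 alternatives and that from RiPS2 under 11 of 17. Neither passed when an array of CRES-3 was left out: without A, B or C the difference from CRES-1 was 0.49, 0.60 or 0.58 (adjusted p = 0.154, 0.0805 or 0.0818). That from RiPS2 was then 0.57, 0.68 or 0.67 (adjusted p = 0.134, 0.0684 or 0.0663). The difference from CRES-1 also failed without CRES-1 A (0.52) or CRES-1 C (0.42), and that from RiPS2 without RiPS2 A (0.56) or RiPS2 C (0.59). Both failed with the arrays of the 2 lines only (adjusted p = 0.0558 and 0.0508). That from CRES-1 failed too with the mean of the probe sets (adjusted p = 0.0557) and with the array letters as a block (adjusted p = 0.0516).

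BAK1 ran in the order fibroblasts (8.18), RiPS1 (7.73), CRES-1 (7.56), RiPS2 (7.53), CRES-3 (7.51), ORMES23 (7.36) and RiPS3 (7.20). Here too no neighbouring pluripotent lines differed, but the ends did: RiPS1 stood 0.53 above RiPS3 (SE 0.12; limma adjusted p = 0.0099), with arrays that did not overlap. That difference passed under 15 of 17 alternatives. It was lost without RiPS1 C (0.44, adjusted p = 0.0523) and with the arrays of the 2 lines only (adjusted p = 0.0592). Of all tested genes, 8.11% passed at any fold between CRES-3 and CRES-1, 4.49% between CRES-3 and RiPS2 and 8.31% between RiPS1 and RiPS3.

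No member was called in any of the 15 pairs of pluripotent lines, and the remaining members passed in none. Over all tested genes, 2.61% were called between CRES-3 and CRES-1, 1.48% between CRES-3 and RiPS2 and 2.44% between RiPS1 and RiPS3. In the other pairs not yet given, 0.709% were called (1.94% passed) between CRES-1 and RiPS2 and 1.53% (3.94% passed) between CRES-1 and RiPS3. The shares were 2.03% (6.43% passed) between CRES-3 and RiPS1, 3.61% (12.2% passed) between RiPS1 and RiPS2 and 1.18% (3.25% passed) between RiPS2 and RiPS3. BIK ran from CRES-3 (7.83) over ORMES23 (7.69), RiPS3 (7.68), RiPS2 (7.38) and RiPS1 (7.36) to CRES-1 (7.04), and its widest gap, 0.78 between CRES-3 and CRES-1, had a limma adjusted p of 0.112. BBC3 ran from RiPS1 (8.16) over CRES-1 (8.14), CRES-3 (7.95), RiPS2 (7.79) and ORMES23 (7.58) to RiPS3 (7.53), with a widest gap of 0.63 (adjusted p = 0.118). The line means of BCL2L11 spanned 0.33, those of BAX 0.36, BCL2 0.36, BCL2L1 0.22 and MCL1 0.11. The SD between arrays of a line, pooled over all lines with the fibroblasts included, was wider than that span for BCL2L11 (0.56) and BAX (0.48). For BCL2L11 the SD was 1.02 in CRES-1 and 0.89 in the fibroblasts, and 0.20 to 0.35 in the other lines. The nearest pluripotent line differed from the fibroblasts for BCL2L1, BCL2L11, MCL1, BAK1, PMAIP1 and BIK, and did not for BCL2, BAX and BBC3.

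Single probe sets were also compared between the pluripotent lines, 19 probe sets in 15 pairs, and 9 of 285 tests passed. Passes over all tested probe sets were not counted in these pairs, so nothing particular to the members is read from that count. The dimmer MCL1 probe set was higher in CRES-1 than in RiPS1 by 0.61 (limma adjusted p = 0.00776 over probe sets), and in CRES-3 it was lower than in CRES-1 (-0.51, adjusted p = 0.023). In CRES-3 against CRES-1, 2 of the dimmer BCL2L1 probe sets were lower, MmugDNA.12133.1.S1_s_at by -0.51 (adjusted p = 0.0315) and MmugDNA.27039.1.S1_at by -0.58 (adjusted p = 0.0495). The other 5 were the 2 PMAIP1 differences and the BAK1 difference given above, and the second PMAIP1 probe set in CRES-3 against ORMES23 (given above) and against RiPS2 (0.74, adjusted p = 0.0148).

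The gene with the most similar profile over the 21 arrays was found for each member by Pearson correlation among the tested genes. These arrays fall into a pluripotent cluster of 18 and a fibroblast cluster of 3, so the values are a description of both the gap and the spread. PMAIP1 was closest to FAM89A (r = 0.99) and MCL1 to FUNDC2 (r = 0.99). BIK was closest to COL9A1 (0.94), BAK1 to MYO9B (0.93), BCL2L1 to ABTB3 (0.93) and BCL2L11 to RASD1 (0.91). BCL2 was closest to GPBAR1 (0.89), BBC3 to DUSP16 (0.85) and BAX to KAT5 (0.84).

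Around the family, 10 lists of apoptosis genes held 65 genes, of which 44 had a probe set under their symbol and 38 were tested. Across these 38, 1 rose in all 6 lines against the fibroblasts and 4 fell in all 6, where 12.7% and 10.5% of all tested genes did. The counts of calls per line given below for single lists stand beside 30.6% to 33.3% of all tested genes called in the same comparisons, and the medians beside 0.02 to 0.05 over all tested genes; nothing particular to a list is read from them. BCL2L14, a BCL2-related gene, rose by log2 differences of 1.24 to 2.37, counted from a fibroblast level of 4.84, which lies under the filter level, so the ratio is not measured. CDKN1A, the p53-induced cell cycle inhibitor p21, fell to line means of 6.86 to 8.00, against 11.7 in the fibroblasts, with log2 differences of -3.70 in CRES-1 to -4.84 in CRES-3. It was also called between CRES-3 and CRES-1.

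Of the 6 tested death receptor genes, the median log2 difference ran from -0.98 in CRES-1 to -1.20 in RiPS2, and 3 or 4 fell in each line. FAS, a death receptor, fell by -2.08 to -3.11, TNFRSF10A, a receptor for the ligand TRAIL, by -1.31 to -1.66, and TRADD, an adaptor of the TNF receptor, by -1.04 to -1.24. TNFRSF10A lay below log2 5 in every pluripotent line and FAS reached 5.14 at most, so these ratios are not measured in full.

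The 8 tested p53 pathway genes other than the members had a median of -0.32 in CRES-3 to 0.03 in CRES-1, and CDKN1A was the 1 that fell in every line. TP53I3, a p53 target, fell in RiPS2 (-1.74) and was called between RiPS2 and 3 other pluripotent lines, among them ORMES23.

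Downstream of the mitochondria, the 5 tested apoptosome, caspase and nuclease genes had 1 to 3 calls in 5 lines and 0 in RiPS2. CASP6, an executioner caspase, differed from the fibroblasts by 0.67 in RiPS3 to 1.83 in RiPS1, rose in 3 lines and was called between RiPS1 and 3 other pluripotent lines. CASP8, the initiator caspase of death receptors, was called only between RiPS1 and RiPS3 and against the fibroblasts in no line. Its pluripotent line means ran from 4.63 in RiPS3, under the filter level, to 5.68 in RiPS1, so that ratio is not measured in full. None of the 5 tested genes of mitochondrial channels and released factors was called against the fibroblasts, with medians of -0.07 in RiPS1 to -0.56 in RiPS2.

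The 3 inhibitor of apoptosis genes tested had 1 call in each of CRES-1, CRES-3, RiPS2 and ORMES23, and 0 in RiPS1 and RiPS3. The call was a fall in CRES-1 and a rise of another gene in CRES-3, RiPS2 and ORMES23. The gene that rose differed by 0.91 to 1.06 over all the lines, so its calls turned on the 2-fold limit. The 4 tested genes for enzymes that attach ubiquitin to MCL1 had medians of 0.41 in ORMES23 to 0.88 in RiPS1, with 1 rise in each of CRES-1, RiPS1 and RiPS3. The single tested guardian outside the members, BCL2L10, and the third pore former, BOK, were called in no line. Of the other BCL2-related genes, BNIP2 was called between CRES-1 and both CRES-3 and RiPS3, and in no line against the fibroblasts.

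**Figure D5:**
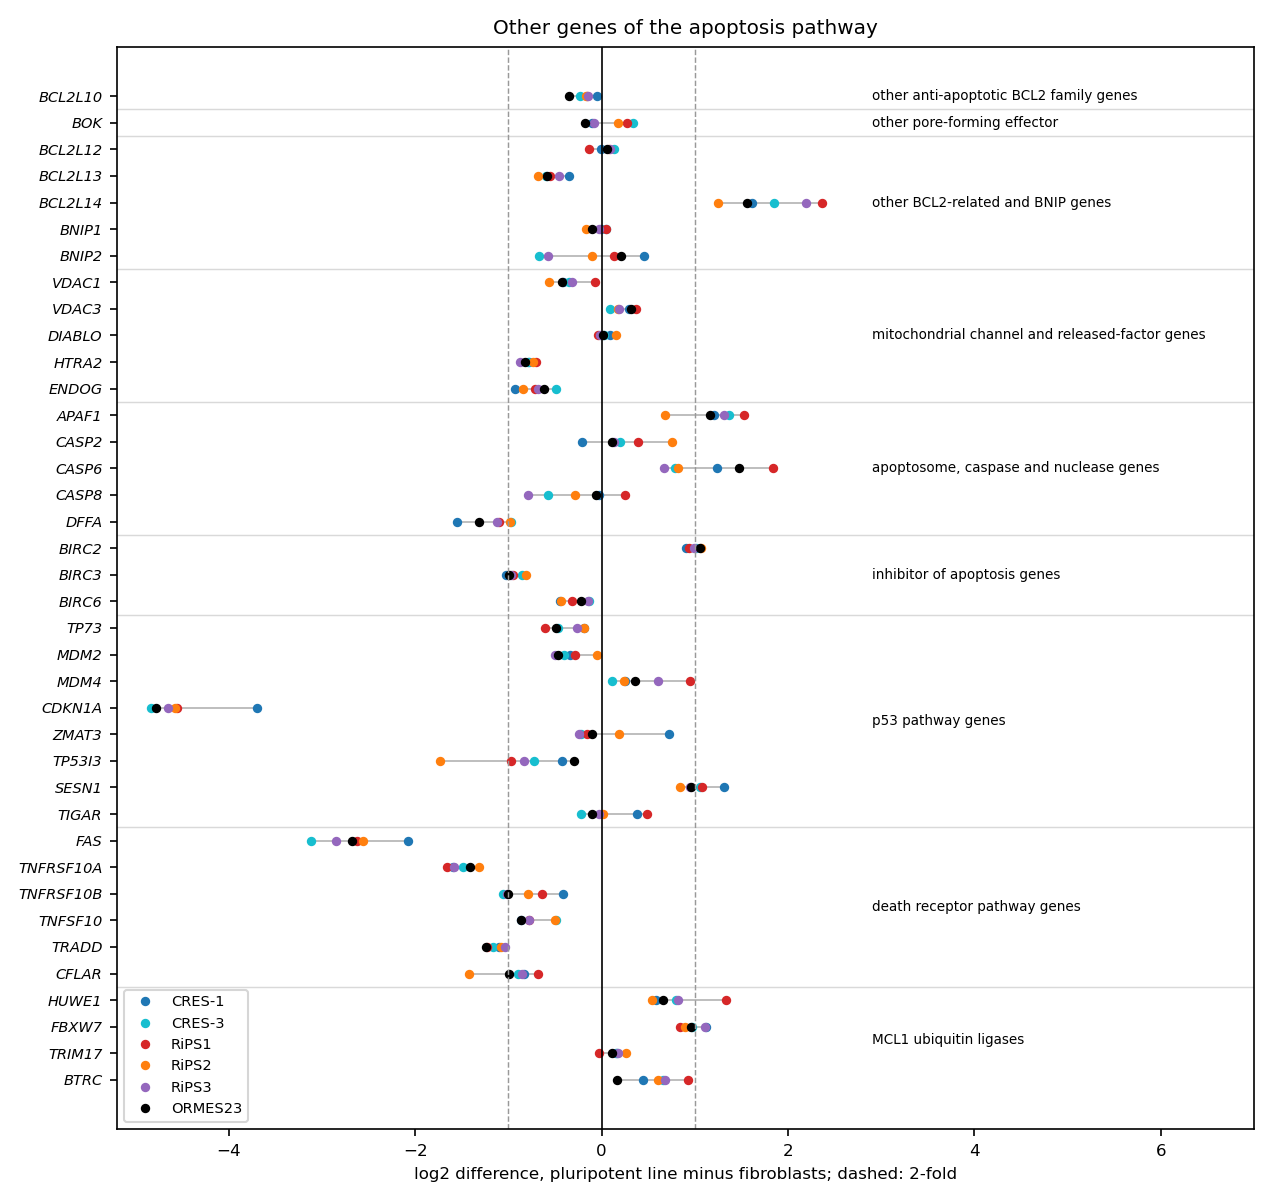
Log2 difference of each pluripotent line minus the fibroblasts for the 38 tested genes of 9 lists around the BCL2 family, grouped by list; dashed lines mark 2-fold. CDKN1A lies between -3.70 and -4.84 in the 6 lines, FAS between -2.08 and -3.11, and BCL2L14 between 1.24 and 2.37.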

How the data were processed

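Total RNA was labelled by the one-cycle protocol and hybridised to Affymetrix rhesus arrays. The authors deposited log2 intensities, 1 per probe set and array; RMA (robust multi-array average) is named in the submitters' processing notes, and its version is not given in the sources used here. Gene symbols came from the platform annotation: of 52865 probe sets, 24969 carried 1 symbol, 361 several and 27535 none, and the last 2 kinds were left out. Where a gene had several probe sets, the one brightest on average stood for it. Testing was limited to the 11143 of 14133 genes that reached log2 5 on 3 arrays.

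A limma 3.58.1 model (R 4.3.3) had a mean per line over all 21 arrays, 14 residual degrees of freedom and empirical Bayes moderation. Two-sided p-values received Benjamini-Hochberg adjustment over all tested genes, or over all tested probe sets with 1 symbol where single probe sets were compared. Calls needed an adjusted p under 0.05 and a 2-fold change. Errors are the SE of the fit or the SD over 3 arrays, and the number of arrays limits the precision.

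The members and lists were chosen with earlier results of these data known. All members are named. Of the lists, genes called in all 6 comparisons with the fibroblasts or in any comparison within the pluripotent lines are named with values, at most 3 a list; BCL2L10 and BOK are named as the single tested genes of theirs. The main model took no pairing of arrays into account, and the letters A, B and C entered alternatives only, as a block. The same-letter deviations from the line mean correlated at 0.32 to 0.35 between CRES-1 and RiPS1. No other pair of lines had all 3 correlations above 0.1. The alternatives covered the filter, the probe set, the normalization, the floor, the spread, array weights, the letters as a block, the fold limit and leaving out arrays.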

Additional observations from a re-analysis of the deposited data

How the results depend on the processing

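No alternative turned the direction of a called difference. PMAIP1 and BIK were called in all 6 lines against the fibroblasts under every alternative, and 0 members were called under any in the comparisons with ORMES23, of CRES-1 with RiPS1 or of CRES-3 with RiPS3. With no limit on the fold change, the members past the threshold against the fibroblasts were 7 in CRES-1, 7 in CRES-3, 7 in RiPS2, 6 in RiPS3 and 6 in ORMES23, in place of 3 each. RiPS1 had 3 in place of 5 with the mean of a gene's probe sets, with median centring of each array and with a second quantile normalization. Over all genes RiPS1 then had 3108, 3649 and 3619 calls, in place of 3656. With the mean of a gene's probe sets, BCL2L11 was called in no line (log2 differences -0.58 to -0.27), so the other lines lost that call too. RiPS3 had 5 in place of 3 with array weights, where 3820 of all genes were called in place of 3621. The F-test among the pluripotent lines passed for 1 member in place of 2 with every probe set on its own, with median centring, with a trend in the empirical Bayes step and with the replicate block. It then passed for 2847 of all probe sets, and for 1920, 1932 and 1833 of all genes, in place of 1909. Leaving out 1 array gave 3 to 4 in CRES-1, 2 to 4 in CRES-3, 3 to 5 in RiPS1, 2 to 4 in RiPS2, 3 to 5 in RiPS3 and 2 to 4 in ORMES23 against the fibroblasts, 0 to 2 for the F-test, and 0 in the comparisons between pluripotent lines named above. Over all genes, the fits without 1 array called 3319 to 3546 in CRES-1, 3622 to 3866 in CRES-3 and 3591 to 3775 in RiPS1 against the fibroblasts. They called 3469 to 3672 in RiPS2, 3550 to 3760 in RiPS3 and 3536 to 3760 in ORMES23. Between the pluripotent lines named above, 0 to 362 genes were called, and the F-test passed for 1377 to 2222. The causes were not tested.

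What same-lettered arrays of different lines share is not stated in the labels. Of 63 same-letter pairs, 20 had deviations correlated above 0.1 (range -0.41 to 0.44), and 5 of 21 arrays correlated best with their own letter. With the letter as a replicate block, 3 members were called in CRES-1, CRES-3, RiPS2, RiPS3 and ORMES23 and 5 in RiPS1 against the fibroblasts, 8 genes in place of 0 in CRES-1 against ORMES23, and the difference of PMAIP1 between CRES-3 and CRES-1 no longer passed (adjusted p = 0.0516). For CRES-1 against RiPS1 the replicate block gave 235 genes in place of 238, or 293 when fitted on these 2 lines only, a setting chosen after seeing the data. No member was called or passed in either fit, with a lowest adjusted p (BCL2) of 0.16 and 0.108.

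Over all genes, array weights raised the calls against ORMES23 to 168 in place of 0 in CRES-1, 363 in place of 111 in CRES-3, 491 in place of 267 in RiPS1, 124 in place of 51 in RiPS2 and 244 in place of 85 in RiPS3. They gave 30 in place of 4 for CRES-3 against RiPS3, 613 in place of 322 for the interaction and 5912 in place of 1909 for the F-test. With the arrays of the 2 lines only, there were 11 in place of 51 in RiPS2 and 27 in place of 85 in RiPS3 against ORMES23. Every probe set on its own tests more features, and gave for example 6024 in place of 3709 in CRES-3 against the fibroblasts.

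MCL1, BCL2L1 and BCL2L11 depend on the probe set read. BCL2 passed in no line as reported. With a second quantile normalization it passed as lower than the fibroblasts in 1 line (limma adjusted p = 0.0317, the lowest over the alternatives). Its log2 differences then ran from -0.35 to 0.004 over the 6 lines.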
